A study of Mus musculus with 38 samples.

Results

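INO80 and ISWI are ATP-driven chromatin remodellers, and the genes followed here encode subunits of INO80 and the ATPases and partner proteins of ISWI. The names looked up in the count table were Ino80, Ino80c, Ino80d, Actr5, Actr8, Smarca1, Baz1a, Baz1b, Bptf and Rsf1, and a member was kept where its counts were above 0. Of the 10 genes named, 6 have counts in all 38 libraries (Ino80, Ino80c, Ino80d, Smarca1, Bptf and Rsf1), out of 55385 genes in the table. The other 4 (Actr5, Actr8, Baz1a and Baz1b) are listed at 0 in every library, as is Smarca5, the gene of the ISWI ATPase SNF2H.

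The cells were embryonic stem cells from mice of strain 129S6/SvEvTac. They were cultured on gelatin-coated plates, with serum and leukemia inhibitory factor in the medium. The first batch holds 26 libraries of wild-type cells in 13 groups of 2. These cells received DMSO for 1 h or 24 h, BRM014 at 10 uM for 30 min, 1 h, 3 h, 6 h or 24 h, or an inactive analog of BRM014 at 10 uM for 1 h or 24 h. Washout groups had 1 h of BRM014 followed by 30 min or 1 h without it, or 24 h of BRM014 followed by 6 h or 24 h without it. No dose is labelled for the washout groups. The second batch holds 12 libraries in 6 groups of 2: wild type (wt, numbered 3 and 4) and lines labelled Ino80ko and Snf2hko (numbered 1 and 2), each with DMSO or with BRM014 at 10 uM for 24 h. DMSO was the solvent of both compounds. BRM014 is an inhibitor of the SWI/SNF ATPases BRG1 and BRM. The labels do not say how either line was made, which part of its gene was removed, or whether it is a single clone, so line and genotype cannot be told apart.

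INO80 slides nucleosomes and is known for its work on nucleosomes that carry the histone variant H2A.Z, at promoters, replication forks and DNA breaks. Its ATPase, encoded by Ino80, is the scaffold on which actin-related proteins (Actr5 and Actr8 among their genes) and smaller subunits such as those of Ino80c and Ino80d are mounted. Several ISWI remodellers, though not all, space nucleosomes evenly. The motor of ISWI remodellers is SNF2H or its close relative SNF2L, the product of Smarca1. The partner protein gives each complex its name and targets. Partners are BPTF in NURF, RSF1 in RSF, BAZ1A (ACF1) in ACF and CHRAC, and BAZ1B (WSTF) in WICH.

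In mouse build GRCm38, Ino80 lies on chromosome 2 from 119373042 to 119477687, and Ino80d on chromosome 1 from 62958418 to 63114667. Smarca1 lies on chromosome X from 47809368 to 47892974, Bptf on chromosome 11 from 107033081 to 107132127, and Rsf1 on chromosome 7 from 97579889 to 97692778. Rsf1 is on the plus strand and the other 5 are on the minus strand. The 6 genes with counts have 0 genes overlapping them on the same strand in GENCODE M21. Each of the 4 members listed at 0, and Smarca5, has 1: Mir3474 for Actr5, Mir6947 for Actr8, Gm20403 for Baz1a, Gm25315 for Baz1b and Gm45872 for Smarca5. A count of 0 is given here as listed and not as a level of expression. Exons of Ino80d overlap the opposite-strand gene Ino80dos and those of Rsf1 overlap Rsf1os2, and both of these antisense genes are also listed at 0.

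The region just upstream of RefSeq's start is shown for the 3 members with counts that have an entry in the promoter set used here. They are Ino80, whose name one line carries, and Smarca1 and Bptf, which were called in more comparisons than the other members. Of 11 genes looked up (the 10 members and Smarca5) 5 have an entry in that set. A gene without one there may still be in RefSeq. Each sequence is the 250 bases before that start, read 5′ to 3′ on the gene's own minus strand in GRCm38.p6, at chr2:119477688-119477937 for Ino80, chrX:47892614-47892863 for Smarca1 and chr11:107132148-107132397 for Bptf. All 3 windows hold 0 GENCODE exons. The Smarca1 window lies inside the gene as GENCODE places it, so RefSeq's start is downstream of the GENCODE start there. Capitals mark GC boxes, spelled GGGCGG, and CCAAT boxes, on either strand.
Ino80: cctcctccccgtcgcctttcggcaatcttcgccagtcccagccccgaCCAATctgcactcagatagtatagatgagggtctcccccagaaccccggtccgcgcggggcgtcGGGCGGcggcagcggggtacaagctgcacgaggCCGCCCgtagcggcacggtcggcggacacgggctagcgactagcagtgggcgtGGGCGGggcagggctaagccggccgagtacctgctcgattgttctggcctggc
Smarca1: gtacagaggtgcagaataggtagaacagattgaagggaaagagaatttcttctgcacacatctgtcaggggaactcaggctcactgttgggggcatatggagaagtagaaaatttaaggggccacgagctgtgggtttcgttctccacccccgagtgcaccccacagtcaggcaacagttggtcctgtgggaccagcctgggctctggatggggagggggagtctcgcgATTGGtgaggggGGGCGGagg
Bptf: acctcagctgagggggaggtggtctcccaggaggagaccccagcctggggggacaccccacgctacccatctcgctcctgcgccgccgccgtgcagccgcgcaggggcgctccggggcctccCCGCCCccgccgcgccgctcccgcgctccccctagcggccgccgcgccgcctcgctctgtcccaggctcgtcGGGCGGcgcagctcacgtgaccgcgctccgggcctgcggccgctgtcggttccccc

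The Ino80 window was 69.2% G or C with 28 CpG dinucleotides, and the Bptf window 79.2% with 34. That of Smarca1, at 56.4% and with 6 CpG, was closer to the median of 52.4% over the 32851 promoters of the same length. Ino80 holds 3 GC boxes, the nearest from -53 to -48 counted from the start, and 1 CCAAT box from -203 to -199. Smarca1 holds 1 GC box from -9 to -4 and 1 CCAAT box, on the opposite strand, from -21 to -17. Bptf holds 2 GC boxes, from -56 to -51 and, on the opposite strand, from -128 to -123. A GC box is present in 32.74% of all promoters and a CCAAT box in 33.85%. The other motifs searched on both strands, AAGATGGC (YY1, 1.56% of promoters), CCGGAAG (ETS, 6.91%) and TATAAA (12.37%), have no match in these 3 windows. None of the motifs overlaps another.

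Libraries held 19.3 to 23.1 M counts in the first batch and 21.9 to 44.5 M in the second. The stem cell marker genes fixed for the check (13 genes, with Sox2 and Tfcp2l1 listed at 0) summed to 5034 to 7539 CPM (counts scaled to a library of 1 M) in the second batch and 5392 to 7523 in the first. In the second batch with DMSO the sum was 5672 to 6030 CPM in wild type, 6252 to 6495 in Ino80ko and 5107 to 5372 in Snf2hko, and with BRM014 6502 to 6694, 7242 to 7539 and 5034 to 5359. Fibroblast markers (7 genes, Col1a2 and Col3a1 at 0) summed to at most 18.58 CPM in any library. Primitive endoderm markers (7 genes, none at 0) differed between the lines under DMSO: 139.4 to 146.1 CPM in wild type, 66.29 to 71.8 in Ino80ko and 661.1 to 681.5 in Snf2hko. Under BRM014 they summed to 198.2 to 214.7 CPM in wild type, 62.54 to 63.46 in Ino80ko and 1016 to 1168 in Snf2hko. What part these lists play in the differences of the lines below was not tested. Levels are CPM scaled by TMM factors within a batch, differences are log2 ± standard error, and a gene is called where edgeR's quasi-likelihood test gives a Benjamini-Hochberg adjusted p under 0.05 over all genes of the fit.

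Per kilobase of exonic sequence, wild-type cells with DMSO for 24 h in the second batch had most Bptf, at 28.8 ± 0.0897 CPM per kb (SD, n = 2), followed by Ino80 at 25.0 ± 0.0271. Ino80c was at 16.3 ± 1.14, Smarca1 at 12.9 ± 0.762, Ino80d at 10.2 ± 0.759 and Rsf1 at 8.26 ± 0.363 CPM per kb. The libraries of neighbours in this order did not overlap there. In the first batch, DMSO for 24 h gave the same first 3 genes, Bptf at 29.5 ± 4.18, Ino80 at 23.0 ± 1.45 and Ino80c at 14.7 ± 1.08. Smarca1 (10.5 ± 0.79), Ino80d (9.16 ± 1.88) and Rsf1 (9.06 ± 1.94) overlapped with one another in that batch. Across libraries the widest range of the first batch was that of Bptf, its highest library at 2.926 times the lowest, followed by Smarca1 at 2.91 times. In the second batch it was that of Smarca1, at 3.263 times, followed by Ino80d at 2.781 and Bptf at 2.48. Ino80 varied least of the 6 in the first batch, with a ratio of 1.402.

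Transcript of the gene that names the first line was checked before anything else. Ino80 stood at 169.8 and 170.1 CPM in the 2 wild-type libraries with DMSO, at 124.3 and 118.9 in the line labelled Ino80ko, and at 125.8 and 120.6 in the line labelled Snf2hko. Both lines lay below wild type without overlap, and their libraries interleaved with each other. Against wild type, Ino80 fell by 0.48 ± 0.07 in Ino80ko (adjusted p = 1.44e-05) and by 0.46 ± 0.07 in Snf2hko (adjusted p = 1.27e-05). These comparisons share the wild-type libraries. Compared directly, Snf2hko differed from Ino80ko by 0.02 ± 0.07 (95% interval -0.13 to 0.16, adjusted p = 0.838). Summed over the gene, Ino80 counts thus did not separate the lines, and they remained in Ino80ko at 0.72 of the wild-type level. A count per gene does not show which exons were read, so it neither checks the label nor says how much protein was made. The Snf2hko label could not be checked on Smarca5, which is listed at 0. Fewer cells with a transcript and less of it per cell cannot be told apart in these bulk libraries.

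Ino80d, a subunit gene found in animals and not in yeast, moved in opposite directions in the lines. It read 170.4 and 189.4 CPM in wild type, 318.9 and 310.5 in Ino80ko and 138.8 and 122.0 in Snf2hko. The Ino80ko libraries were the highest, those of Snf2hko the lowest, and no groups overlapped. The change was 0.81 ± 0.09 in Ino80ko (adjusted p = 4.22e-07) and -0.46 ± 0.09 in Snf2hko (adjusted p = 0.000155), and the lines differed by -1.27 ± 0.09 (adjusted p = 3.86e-10). Ino80c, the counterpart of yeast Ies6, which works together with the ARP5 protein, lies on chromosome 18 from 24104757 to 24121953. It was at 48.3 and 43.7 CPM in wild type, 44.4 and 49.1 in Ino80ko and 51.3 and 49.9 in Snf2hko. Wild type and Ino80ko overlapped, and neither line was called: the 95% intervals were -0.14 to 0.19 in Ino80ko and -0.03 to 0.30 in Snf2hko on the log2 scale.

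Smarca1, the SNF2L gene and the ISWI ATPase gene that has counts, fell in both lines. Its level was 75.7 and 82.3 CPM in wild type, 35.9 and 38.0 in Ino80ko and 54.5 and 52.6 in Snf2hko. Ino80ko was lowest and Snf2hko lay between it and wild type, with no overlap. The change was -1.10 ± 0.07 in Ino80ko (adjusted p = 5.93e-10), to 0.47 of wild type, and -0.56 ± 0.07 in Snf2hko (adjusted p = 1.58e-06). The lines differed by 0.53 ± 0.07 (adjusted p = 3.58e-06).

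Bptf, the largest subunit of NURF, which reads methylated histone H3, was at 404.5 and 406.3 CPM in wild type, 373.5 and 353.6 in Ino80ko and 330.0 and 320.9 in Snf2hko. All libraries of both lines were below wild type, but the fall was called in Snf2hko (-0.32 ± 0.07, adjusted p = 0.000759) and missed the threshold in Ino80ko (-0.16 ± 0.07, adjusted p = 0.0752). The direct difference of the lines, -0.16 ± 0.07, was not called (adjusted p = 0.0584). Rsf1, the SNF2H partner in the RSF complex, was at 152.4 and 162.2 CPM in wild type, 152.6 and 137.2 in Ino80ko and 114.0 and 103.0 in Snf2hko. Wild type and Ino80ko overlapped and Snf2hko was lower than both, with a difference of -0.54 ± 0.09 against wild type (adjusted p = 4.42e-05) and -0.42 ± 0.09 against Ino80ko (adjusted p = 0.000529).

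**Figure D1:**
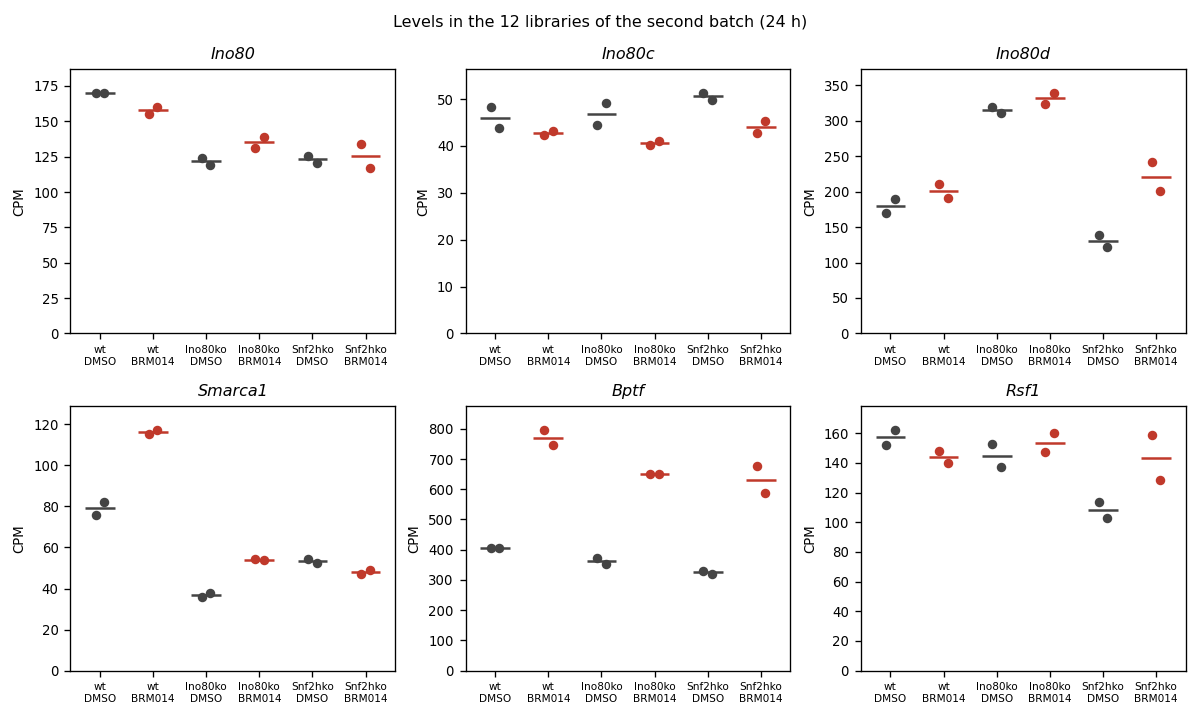
CPM of the 6 members (vertical axes) in each library of the second batch, by line and treatment (horizontal axes), grey for DMSO and red for BRM014, with a line at the mean of the 2 libraries. Ino80d is highest in Ino80ko (310.5 to 318.9 CPM with DMSO), and with DMSO Smarca1 is lowest there and Ino80 is at like levels in both lines.

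In counts, Ino80ko with DMSO had 1 member higher and 2 lower of 6 tested, where 45.0% of all genes tested were called. Snf2hko had 0 higher and 5 lower, where 56.5% of genes were called and 27.7% were called lower. Between the lines 3 members were called, where 57.4% of genes were. The median change of the members was -0.14 in Ino80ko and -0.46 in Snf2hko, beside medians of 0.0043 and 0.0030 over all genes. With such large shares of all genes called, the number of members called in Ino80ko or between the lines stands near the background.

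With BRM014 in place of DMSO, Ino80 and Smarca1 were again lower in both lines than in wild type. Ino80 read 155.1 and 160.2 CPM in wild type, 131.3 and 139.0 in Ino80ko and 133.7 and 116.9 in Snf2hko, without overlap between wild type and either line. The differences from wild type were -0.22 ± 0.07 (adjusted p = 0.0147) and -0.33 ± 0.07 (adjusted p = 0.000407). Smarca1 read 115.5 and 117.2 CPM in wild type, 54.2 and 53.7 in Ino80ko and 47.3 and 49.1 in Snf2hko. Its libraries were highest in wild type, and the difference from wild type was -1.11 ± 0.07 in Ino80ko (adjusted p = 3.96e-10) and -1.27 ± 0.07 in Snf2hko (adjusted p = 1.79e-11). Ino80d stayed higher in Ino80ko, at 323.7 and 339.2 CPM against 210.6 and 190.9, by 0.72 ± 0.09 (adjusted p = 2.01e-06), while in Snf2hko it differed from wild type by 0.14 ± 0.09 (adjusted p = 0.174), not called. Rsf1 in Snf2hko differed from wild type by -0.01 ± 0.09 (95% interval -0.20 to 0.18, adjusted p = 0.944), and Bptf was lower in both lines (-0.24 ± 0.07 and -0.29 ± 0.07, adjusted p = 0.00816 and 0.00145). In all, Ino80ko under BRM014 had 1 member higher and 3 lower, where 44.1% of genes were called, and Snf2hko 0 higher and 3 lower, where 61.9% were. Leaving out BRM014-treated wild-type library 3 ended the Bptf call in Ino80ko (-0.20, adjusted p = 0.0909), and leaving out Ino80ko library 1 or wild-type library 4 ended the Ino80 call there (-0.19 and -0.20, adjusted p = 0.109 and 0.0819).

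Within each genotype of the second batch, Bptf had the largest rise of the 6 members after BRM014. Bptf rose from 404.5 and 406.3 to 795.8 and 745.6 CPM in wild type, from 373.5 and 353.6 to 650.8 and 650.2 in Ino80ko, and from 330.0 and 320.9 to 676.3 and 586.4 in Snf2hko. Every treated library lay above every DMSO library. The rise was 0.93 ± 0.07, 0.84 ± 0.07 and 0.96 ± 0.07 in the 3 genotypes (adjusted p = 3.56e-09, 9.42e-09 and 1.14e-09), and a difference in its size from wild type was not detected in either line. That difference was -0.09 ± 0.10 (95% interval -0.29 to 0.12, adjusted p = 0.651) in Ino80ko and 0.03 ± 0.10 (-0.18 to 0.24, adjusted p = 0.854) in Snf2hko.

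Smarca1 also rose in wild type, from 75.7 and 82.3 to 115.5 and 117.2 CPM (0.56 ± 0.07, adjusted p = 2.98e-06), and in Ino80ko, from 35.9 and 38.0 to 54.2 and 53.7 (0.55 ± 0.07, adjusted p = 4.38e-06). In Snf2hko it went from 54.5 and 52.6 to 47.3 and 49.1 CPM, with both treated libraries below the DMSO libraries (-0.15 ± 0.07, adjusted p = 0.079, not called). The response in Snf2hko was lower than in wild type, with a difference of -0.71 ± 0.10 (test of the difference, adjusted p = 2.71e-05). In Ino80ko it differed from that in wild type by -0.01 ± 0.10 (95% interval -0.22 to 0.20, adjusted p = 0.964).

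Ino80d and Rsf1 responded to BRM014 in Snf2hko more than in wild type. Ino80d went from 170.4 and 189.4 to 210.6 and 190.9 CPM in wild type (0.16 ± 0.09, adjusted p = 0.152) and from 138.8 and 122.0 to 242.1 and 200.3 in Snf2hko (0.76 ± 0.09, adjusted p = 4.75e-07). The difference of these responses was 0.60 ± 0.12 (adjusted p = 0.000953). Rsf1 went from 152.4 and 162.2 to 148.4 and 140.2 CPM in wild type (-0.12 ± 0.09, adjusted p = 0.283) and from 114.0 and 103.0 to 159.0 and 128.3 in Snf2hko (0.40 ± 0.09, adjusted p = 0.000758). The difference was 0.53 ± 0.13 (adjusted p = 0.00343), and among treated libraries 1 of Snf2hko lay above wild type and 1 below. For Ino80d, 1 treated Snf2hko library lay within the range of treated wild type and 1 above it. The chi-square of counts per degree of freedom between these 2 treated libraries was 25.36, against 2.043 to 16.43 in the other pairs. That measure grows with depth, and the correlation of their log2 CPM, 0.9974, lay within the 0.9948 to 0.9984 of the other pairs. Without library 1 of them the differences were 0.45 for Ino80d (adjusted p = 0.00689) and 0.35 for Rsf1 (adjusted p = 0.0281), and without library 2 they were 0.71 (adjusted p = 9.47e-05) and 0.65 (adjusted p = 0.000193).

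Ino80 itself was not called for BRM014 in any genotype of the second batch: -0.11 ± 0.07 in wild type, 0.15 ± 0.07 in Ino80ko and 0.02 ± 0.07 in Snf2hko (adjusted p = 0.223, 0.0841 and 0.79). Ino80c was slightly lower after BRM014 in Ino80ko, 40.3 and 41.0 against 44.4 and 49.1 CPM (-0.20 ± 0.08, adjusted p = 0.0466), and in Snf2hko, 42.8 and 45.3 against 51.3 and 49.9 CPM (-0.20 ± 0.08, adjusted p = 0.0389). The first call was lost with DESeq2 (adjusted p = 0.0563), with RLE size factors (adjusted p = 0.0512) and without the filter on low counts (adjusted p = 0.0823). It was also lost with any of the 4 libraries left out (-0.26 to -0.12). The second was lost without treated library 1 or either DMSO library (adjusted p = 0.0895 to 0.184). In counts, BRM014 called 2 members of 6 in wild type of the second batch, where 42.3% of genes were called, 3 in Ino80ko (44.5%) and 4 in Snf2hko (56.9%). The difference of response from wild type was called for 3 members in Snf2hko, where 32.6% of genes were called. In Ino80ko it was called for 0 members by edgeR and 0 by DESeq2, with 1 at an unadjusted p under 0.05 (Ino80, 0.26 ± 0.10), where 9.03% of genes were called.

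**Figure D2:**
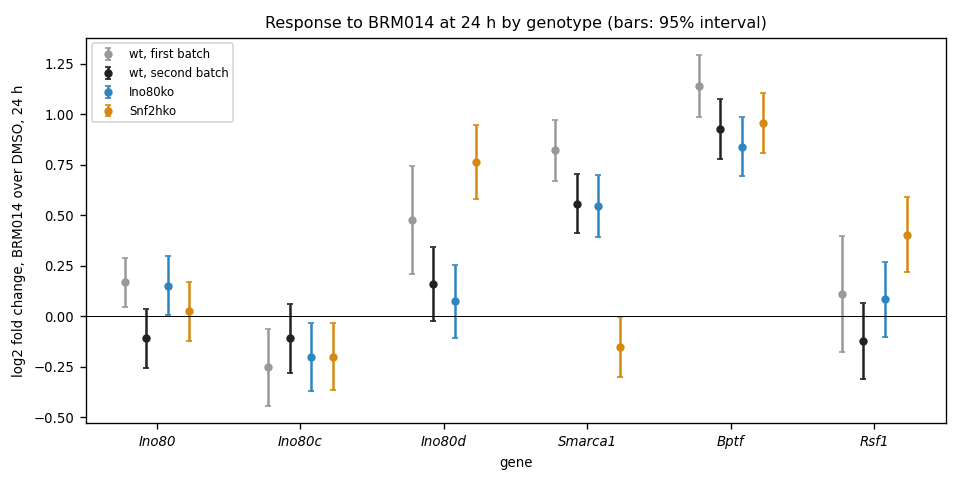
log2 fold change of each member (horizontal axis) after 24 h of BRM014 against DMSO, with 95% intervals, for wild type of each batch and for both lines. Bptf rises in all 4 comparisons, by 0.84 to 1.14, whereas Smarca1 is at -0.15 in Snf2hko and Ino80d and Rsf1 are highest there.

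Over both batches of wild type, with batch as a term (4 libraries against 4), BRM014 for 24 h raised Bptf by 1.03 ± 0.07 (adjusted p = 7.92e-09), Smarca1 by 0.69 ± 0.07 (adjusted p = 1.02e-06) and Ino80d by 0.32 ± 0.09 (adjusted p = 0.0117). In the first batch Bptf went from 373.4 and 456.7 to 912.3 and 916.0 CPM, Smarca1 from 60.8 and 67.6 to 119.1 and 107.6, and Ino80d from 138.7 and 185.8 to 228.9 and 221.9. Treated libraries lay above the DMSO libraries for all 3 genes in both batches. The rise of Ino80d was 0.48 ± 0.13 in the first batch (adjusted p = 0.00525) and 0.16 ± 0.09 in the second, where it was not called. Ino80 (0.03 ± 0.07), Ino80c (-0.18 ± 0.07, adjusted p = 0.0555) and Rsf1 (-0.01 ± 0.09) were not called over both batches. So 3 of 6 members were higher and 0 lower, where 50.1% of all genes were called and 25.0% were called higher.

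Within the first batch alone 5 members were called, where 45.8% of genes were, adding Ino80 (0.17 ± 0.06, adjusted p = 0.0194) and Ino80c (-0.25 ± 0.09, adjusted p = 0.0269). These calls, and that of Ino80d, depend on single libraries: without DMSO library 1 the Ino80 change was 0.10 (adjusted p = 0.238) and that of Ino80d 0.28 (adjusted p = 0.0888), and without treated library 1 that of Ino80 was 0.13 (adjusted p = 0.149). For Ino80c the change was -0.18 without DMSO library 2 (adjusted p = 0.21) and -0.21 without treated library 2 (adjusted p = 0.168). The difference of the 24 h response between batches was called for 0 members (adjusted p = 0.208 to 0.616), where 3.52% of genes were called.

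Bptf followed a course over time. In the first batch it was at 385.1 and 366.0 CPM with DMSO for 1 h, 359.0 and 355.7 after 30 min of BRM014, 372.8 and 390.7 after 1 h, 447.8 and 457.2 after 3 h, 589.3 and 579.9 after 6 h and 912.3 and 916.0 after 24 h. The libraries at 6 h lay above all DMSO libraries and those at 24 h above all others of the batch. Against the mean of both DMSO times the change was 0.20 ± 0.06 at 3 h (adjusted p = 0.0187) and 0.57 ± 0.06 at 6 h (adjusted p = 1.66e-08). The call at 3 h was lost against DMSO 24 h alone (0.13, adjusted p = 0.2) and without any of 4 single libraries, both at 3 h, DMSO 1 h library 2 and DMSO 24 h library 1 (adjusted p = 0.0535 to 0.126).

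Smarca1 did not follow that course. It stayed between 40.9 and 49.9 CPM from 30 min to 6 h of BRM014 and was at 119.1 and 107.6 at 24 h. The vehicle changed as well, from 48.2 and 50.0 CPM at 1 h to 60.8 and 67.6 at 24 h (0.38 ± 0.08, adjusted p = 0.000606). Against the mean of both vehicles Smarca1 was at -0.23 ± 0.07 at 3 h and -0.37 ± 0.07 at 6 h (adjusted p = 0.0086 and 4.45e-05). Against DMSO 1 h alone these were -0.04 (adjusted p = 0.768) and -0.18 (adjusted p = 0.0674), so neither call holds against that vehicle. Without treated library 1 the value at 3 h was -0.17 (adjusted p = 0.175).

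Among INO80 genes, Ino80 stood at 189.6 and 185.4 CPM with DMSO for 1 h and 149.7 and 163.7 for 24 h, a fall of 0.26 ± 0.06 with time alone (adjusted p = 0.00205). Its 201.8 and 199.2 CPM at 3 h of BRM014 was called against the mean of the vehicles (0.23 ± 0.05, adjusted p = 0.000785) and not against DMSO 1 h alone (0.10, adjusted p = 0.243). Ino80c fell to 37.3 and 39.6 CPM at 6 h (-0.22 ± 0.08, adjusted p = 0.0258), and Ino80d rose to 215.8 and 205.0 (0.29 ± 0.11, adjusted p = 0.0378). Both changes at 6 h rest on small margins: the first was not called against DMSO 24 h alone (-0.11, adjusted p = 0.321) or without treated library 1, DMSO 1 h library 1 or DMSO 24 h library 2 (adjusted p = 0.0603 to 0.214). The second was not called against DMSO 1 h alone (0.20, adjusted p = 0.231) or without any of 5 libraries, both at 6 h, both with DMSO for 1 h and DMSO 24 h library 1 (adjusted p = 0.0526 to 0.194). Rsf1 was not called at any time of BRM014 in this batch. Its DMSO libraries at 24 h, 146.3 and 198.5 CPM, were themselves far apart.

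At 30 min and at 1 h of BRM014, 0 members were called by edgeR and 0 by DESeq2, with 0 at an unadjusted p under 0.05, where 0% and 0.599% of genes were called. The 95% interval for Bptf at 1 h was -0.13 to 0.18 and that for Ino80 -0.09 to 0.15 on the log2 scale. At 3 h 2 members were higher and 1 lower (31.2% of genes called), and at 6 h 2 were higher and 2 lower (48.4%). DMSO for 24 h against 1 h, with no drug, had 1 member higher and 1 lower (18.5%). The Ino80 call in that vehicle comparison was lost where only its 4 libraries were fitted (-0.25, adjusted p = 0.081).

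**Figure D3:**
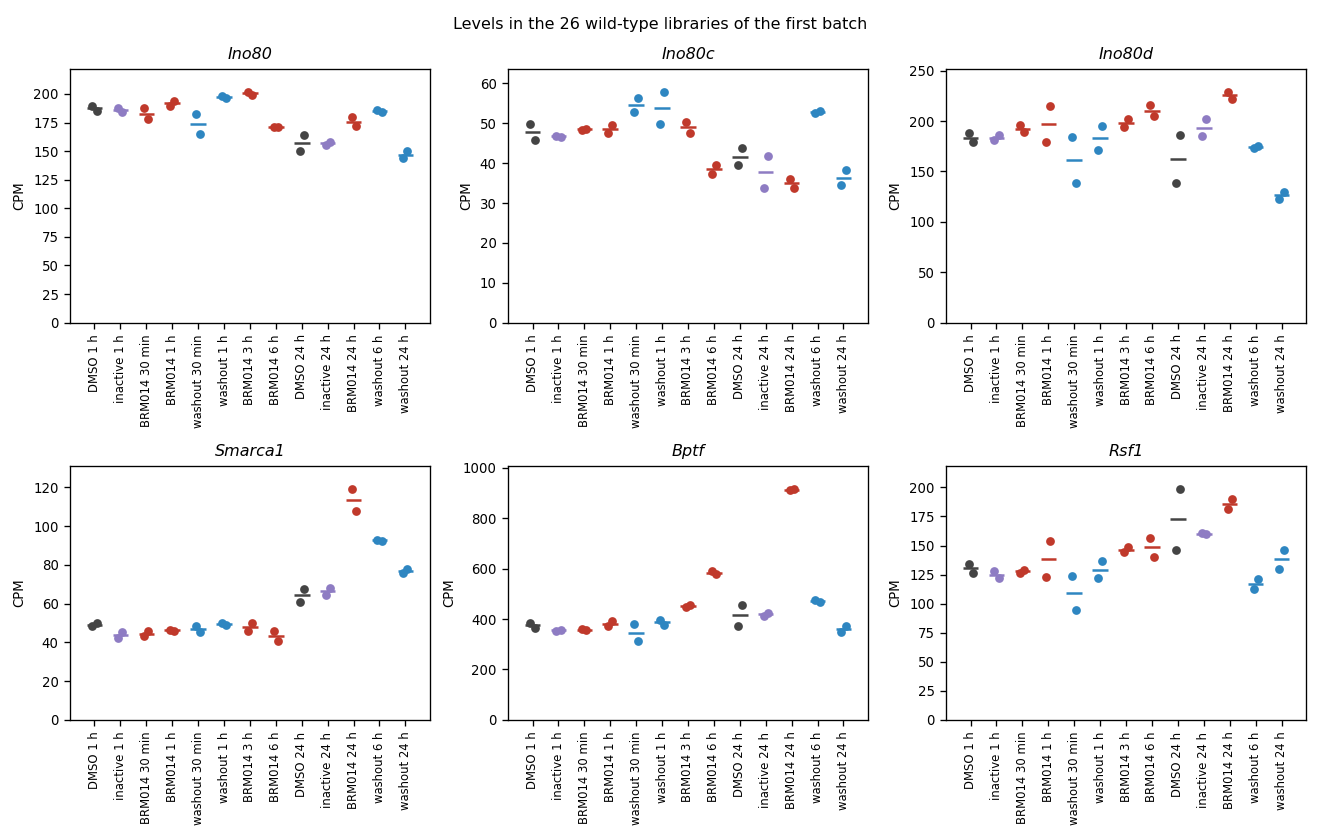
CPM of the 6 members (vertical axes) in each library of the first batch, by treatment and time (horizontal axes), grey for DMSO, violet for the inactive analog, red for BRM014 and blue for washout, with a line at the mean of the 2 libraries. Bptf climbs from 3 h to 912.3 and 916.0 CPM at 24 h and is at 347.6 and 373.2 CPM 24 h after washout, while Smarca1 is high at 24 h and not at 6 h.

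The inactive analog is a structural relative of BRM014 made as a control for it, and both were given at 10 uM, so they were compared at the 2 matched times. After 24 h Bptf was at 413.1 and 425.8 CPM with the analog, 373.4 and 456.7 with DMSO and 912.3 and 916.0 with BRM014. The analog libraries fell within the DMSO range and well below BRM014. BRM014 exceeded the analog by 1.12 ± 0.07 (adjusted p = 7.72e-13), and the analog differed from DMSO by 0.02 ± 0.07 (95% interval -0.14 to 0.17, adjusted p = 0.915). Smarca1 was at 64.4 and 68.2 CPM with the analog, lower than with BRM014 by 0.77 ± 0.07 (adjusted p = 1.36e-09) and at 0.05 ± 0.07 against DMSO. Ino80 was higher with BRM014 than with the analog by 0.17 ± 0.06 (adjusted p = 0.0255). That call was lost without BRM014 library 1 or without either analog library (0.12 to 0.16, adjusted p = 0.111 to 0.22).

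For Ino80c, Ino80d and Rsf1 a difference between the compounds at 24 h was not detected, with 95% intervals of -0.31 to 0.08, -0.05 to 0.49 and -0.07 to 0.50 on the log2 scale. Ino80d stood at 185.25 and 201.8 CPM with the analog, against 138.7 and 185.8 with DMSO (0.26 ± 0.13, adjusted p = 0.186, not called). In all, 3 members were higher with BRM014 than with the analog and 0 lower, where 35.4% of genes were called. After 1 h the compounds differed in 0 members by edgeR and 0 by DESeq2, with 0 at an unadjusted p under 0.05, where 0.160% of genes were called. The interval for Bptf was then -0.05 to 0.25 and that for Rsf1 -0.14 to 0.44. Against DMSO the analog changed 0 members at 1 h by either tool (1 at an unadjusted p under 0.05, Smarca1 at -0.17 ± 0.08; 0.184% of genes called). At 24 h it also changed 0 by either tool (0 at an unadjusted p under 0.05; 18.4% of genes called). These comparisons share BRM014 or DMSO libraries with those above. Adjusted p-values are over all genes of each comparison.

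Bptf was lower again in the washout groups that followed 24 h of BRM014. From 912.3 and 916.0 CPM at 24 h of BRM014 it was at 474.7 and 467.5 after 6 h without the drug and at 347.6 and 373.2 after 24 h. The DMSO libraries at 24 h, 373.4 and 456.7 CPM, lay between the washout groups and overlapped with neither. Against BRM014 the change was -0.96 ± 0.07 at 6 h and -1.34 ± 0.08 at 24 h (adjusted p = 1.34e-11 and 9.69e-15). Against DMSO, Bptf was at 0.18 ± 0.07 after 6 h (adjusted p = 0.0495) and -0.20 ± 0.07 after 24 h (adjusted p = 0.0578, not called). The small excess at 6 h was lost with DESeq2 (adjusted p = 0.0706), with RLE size factors (adjusted p = 0.0573) and without the filter on low counts (adjusted p = 0.0648). It was also lost with the replicate number as a block (0.18, adjusted p = 0.0539) and with only the libraries compared (0.17, adjusted p = 0.185). The call was lost too without either washout library (0.16 and 0.19) and without DMSO library 1 (0.04).

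Smarca1 came down in steps and stayed above DMSO. It read 119.1 and 107.6 CPM at 24 h of BRM014, 92.9 and 92.5 after 6 h of washout and 75.7 and 77.9 after 24 h, with no overlap between the 3 groups. Against DMSO 24 h it was still 0.53 ± 0.07 higher after 6 h (adjusted p = 1.53e-06) and 0.26 ± 0.07 higher after 24 h (adjusted p = 0.0152). The last call was lost without washout library 2 (0.24, adjusted p = 0.0841) or DMSO library 1 (0.18, adjusted p = 0.147).

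Ino80d was at 173.1 and 174.9 CPM after 6 h of washout and 122.4 and 130.0 after 24 h, against 228.9 and 221.9 with BRM014. The lowest of these were below both DMSO libraries (138.7 and 185.8), though the difference from DMSO was not called (-0.36 ± 0.13, adjusted p = 0.0636). Against BRM014 the change was -0.37 ± 0.13 at 6 h (adjusted p = 0.0217) and -0.84 ± 0.13 at 24 h (adjusted p = 3.35e-05). The call at 6 h was lost with any of its 4 libraries left out (-0.36 to -0.40, adjusted p = 0.057 to 0.0825).

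The remaining members had a different pattern at 6 h of washout than at 24 h. Ino80c was at 52.6 and 53.0 CPM after 6 h, above BRM014 (36.0 and 33.8; 0.60 ± 0.09, adjusted p = 3.64e-06) and above DMSO 24 h (39.4 and 43.8; 0.35 ± 0.09, adjusted p = 0.00299). At 24 h it read 34.4 and 38.3. Ino80 was likewise above DMSO after 6 h, at 185.8 and 183.8 CPM (0.24 ± 0.06, adjusted p = 0.0016), and below BRM014 after 24 h, at 143.9 and 149.7 (-0.26 ± 0.06, adjusted p = 0.000456). Rsf1 was the member called lower than DMSO after 6 h, at 112.3 and 121.1 CPM against 146.3 and 198.5 (-0.56 ± 0.14, adjusted p = 0.00369). After 24 h it read 130.2 and 146.4 CPM, overlapped with DMSO and was not called against it. Without DMSO library 2 the Rsf1 difference was -0.34 (adjusted p = 0.0629), and without DMSO library 1 that of Ino80c was 0.27 (adjusted p = 0.0521). Against BRM014 Rsf1 fell by 0.67 ± 0.14 at 6 h (adjusted p = 0.000665) and 0.43 ± 0.14 at 24 h (adjusted p = 0.0157). The second of these was lost without washout library 1 (-0.35, adjusted p = 0.111) or BRM014 library 2 (-0.39, adjusted p = 0.078).

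Against 24 h of BRM014, washout of 6 h had 1 member higher and 4 lower, where 48.7% of genes were called. Washout of 24 h had 0 higher and 5 lower, where 50.4% of genes were called and 24.6% were called lower. Against DMSO 24 h, 6 h of washout had 4 members higher and 1 lower (39.8% of genes called), and 24 h had 1 higher and 0 lower (17.4%). The study has no washed vehicle, so time and change of medium cannot be told apart from washout in these comparisons. Washouts after 1 h of BRM014 gave 0 members by edgeR and 0 by DESeq2 at 30 min (3 at an unadjusted p under 0.05, 5.90% of genes called) and 0 by both at 1 h (0 at an unadjusted p under 0.05, 3.98% of genes called). The 2 libraries of 30 min washout were apart in several members, with Ino80d at 184.6 and 138.3 CPM and Bptf at 379.5 and 313.0. Without library 1 of them 4 members were called, Ino80, Ino80d, Bptf and Rsf1. Of all genes 1336 were then called, against 738 with that library. Other counts of members also turned on single libraries. Without DMSO 24 h library 1, washout of 24 h differed from DMSO in 3 members (Ino80d, Bptf and Rsf1) and DMSO 24 h from DMSO 1 h in 4 (Ino80, Smarca1, Bptf and Rsf1). All genes called also rose then, to 2611 from 2181 in the first comparison and to 2736 from 2320 in the second. Without DMSO 24 h library 2, the analog at 24 h differed from DMSO in 1 (Ino80d). Over the libraries left out, 1296 to 2411 genes were called in that comparison, and 2306 with all libraries.

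**Figure D4:**
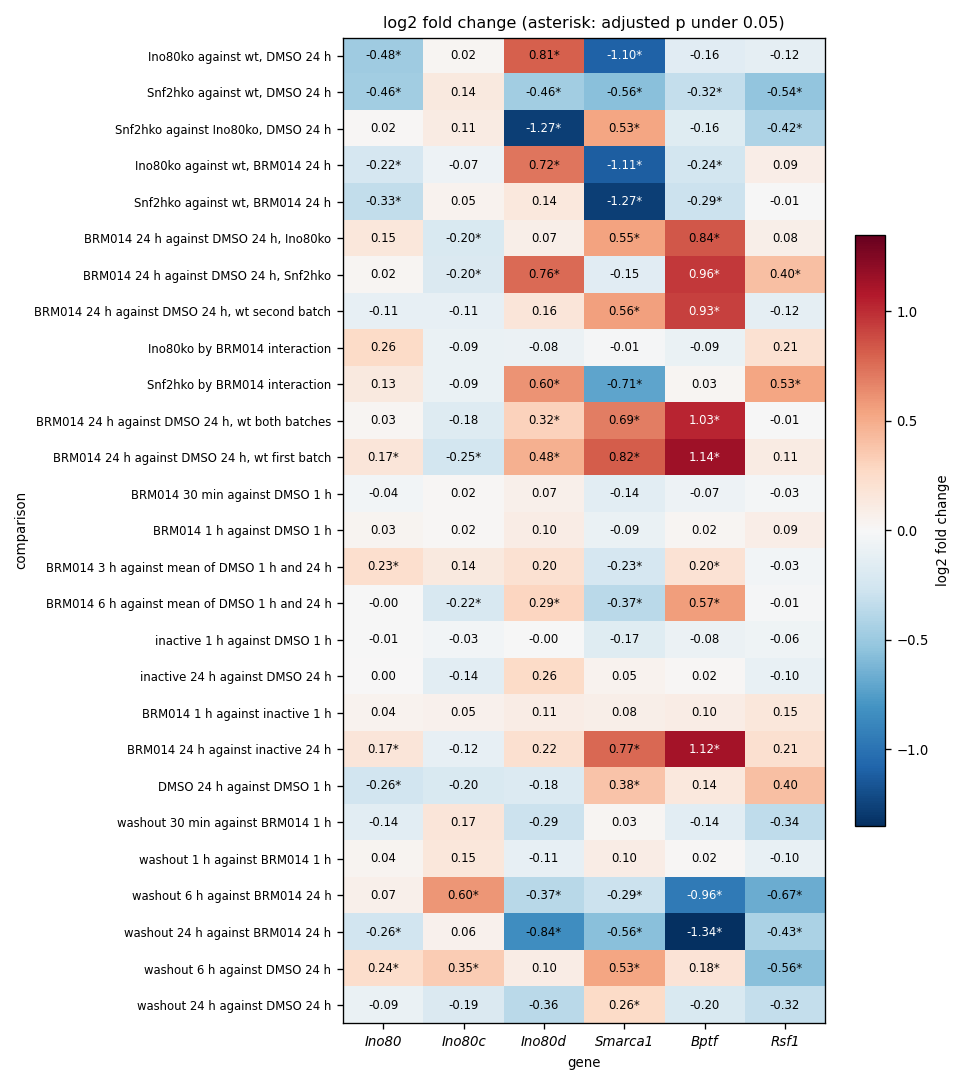
log2 fold change of the 6 members (columns) in all 27 comparisons (rows), coloured from blue (lower) to red (higher), with an asterisk where the gene was called. Bptf was called higher in 9 and lower in 5 of the 27 and Smarca1 higher in 9 and lower in 9. After 24 h of washout Bptf is at -1.34 against 24 h of BRM014 and at -0.20, not called, against DMSO 24 h. Smarca1 is at -1.27 in Snf2hko against wild type, both under BRM014.

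Over the 27 comparisons, which share libraries, Smarca1 was called higher in 9 and lower in 9, and Bptf higher in 9 and lower in 5. Ino80d was called higher in 7 and lower in 4, Ino80 higher in 4 and lower in 6, Rsf1 higher in 2 and lower in 5, and Ino80c higher in 2 and lower in 4. The correlation of group mean log2 CPM between Ino80 and Ino80c was 0.70 over the 13 groups of the first batch and -0.30 over the 6 groups of the second. Between Ino80 and Smarca1 it was -0.40 and 0.85, and between Bptf and Smarca1 0.60 and 0.49. Groups within a batch are not independent of one another, so these values describe the groups and carry no p-value.

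Other genes of these complexes were set beside the members. Of 11 other INO80 genes, 10 have counts (Uchl5 is listed at 0). In Ino80ko with DMSO 6 were higher and 1 lower, with a median of 0.19, where 45.0% of all genes were called in either direction. Ino80b, a small subunit gene, was higher by 0.97 ± 0.14 (adjusted p = 1.18e-05), Mcrs1 by 0.28 ± 0.08 (adjusted p = 0.00838) and Nfrkb by 0.23 ± 0.06 (adjusted p = 0.00509), while Actl6a, which encodes an actin-related protein shared with SWI/SNF, was lower (-0.30 ± 0.07, adjusted p = 0.00124). Snf2hko had 2 of the 10 higher and 4 lower, with a median of -0.06, where 56.5% of genes were called: Ino80b (0.63 ± 0.14, adjusted p = 0.00072) and Actb (0.32 ± 0.07, adjusted p = 0.000743) were higher, and Nfrkb (-0.29 ± 0.06, adjusted p = 0.000613) and Ino80e (-0.30 ± 0.07, adjusted p = 0.00124) lower. BRM014 at 24 h in wild type of both batches had 2 higher, Nfrkb (0.36 ± 0.06, adjusted p = 9.24e-05) and Actl6a (0.14 ± 0.06, adjusted p = 0.0474), and 0 lower, with a median of -0.03, where 50.1% of genes were called.

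Of 9 other ISWI complex genes 7 have counts (Smarca5 and Baz2b are listed at 0). In Ino80ko 1 was higher and 4 lower (median -0.21), where 45.0% of genes were called. In Snf2hko 0 were higher and 5 lower (median -0.63), where 56.5% of genes were called and 27.7% were called lower. Hmgxb4, a NURF-associated gene, fell from 177 ± 0.991 CPM in wild type to 118 ± 5.15 in Ino80ko (-0.58 ± 0.06, adjusted p = 3.66e-07) and 114 ± 1.11 in Snf2hko (-0.63 ± 0.06, adjusted p = 6.08e-08). It rose with BRM014 in wild type (0.68 ± 0.06, adjusted p = 7.35e-08). Cecr2, whose product forms the CERF complex with an ISWI ATPase, fell from 192 ± 8.40 to 79.8 ± 0.0581 CPM in Snf2hko (-1.27 ± 0.07, adjusted p = 1.42e-11) and rose with BRM014 (0.51 ± 0.07, adjusted p = 1.41e-05). In Snf2hko Rbbp4, a histone-binding subunit, changed by -0.64 ± 0.07 (adjusted p = 1.19e-07), and Baz2a, the partner in NoRC, by -0.64 ± 0.09 (adjusted p = 3.79e-06). BRM014 in wild type had 3 of the 7 higher and 1 lower, with a median of 0.07, where 50.1% of genes were called. Rbbp7 was among the higher (0.30 ± 0.06, adjusted p = 0.000356) and Rbbp4 was the lower (-0.15 ± 0.06, adjusted p = 0.0497).

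Of 28 genes of other remodeller ATPases 16 have counts. Those listed at 0 are Smarca4 (BRG1), Chd2, Chd3, Chd4, Chd8, Chd9, Srcap, Ep400, Atrx, Ercc6l2, Rad54b and Zranb3. Smarca2, the BRM gene and a target of BRM014, moved in opposite directions in the lines, from 10.6 ± 0.295 CPM in wild type to 4.25 ± 0.0822 in Ino80ko (-1.32 ± 0.12, adjusted p = 4.08e-08) and 44.6 ± 1.18 in Snf2hko (2.07 ± 0.10, adjusted p = 4.05e-12). Chd7 fell from 184 ± 0.853 to 79.9 ± 4.29 CPM in Snf2hko (-1.20 ± 0.08, adjusted p = 5.36e-10), and Hells, an ATPase needed for DNA methylation, was lower in both lines (-0.30 ± 0.07 and -0.57 ± 0.07, adjusted p = 0.00118 and 6.49e-07). Hltf was also lower in both (-0.29 ± 0.07 and -0.53 ± 0.07, adjusted p = 0.00232 and 3.15e-06), and Chd6 was higher in Ino80ko (0.26 ± 0.06, adjusted p = 0.00206). In all, 3 of the 16 were higher and 5 lower in Ino80ko (median 0.007), where 45.0% of genes were called. In Snf2hko 1 was higher and 9 lower (median -0.26), where 56.5% of genes were called and 27.7% were called lower. BRM014 in wild type had 4 higher and 4 lower (median 0.02), where 50.1% of genes were called, among them Chd5 (-0.90 ± 0.11, adjusted p = 5.98e-06), Smarcad1 (0.36 ± 0.06, adjusted p = 0.000135), Ercc6l (-0.32 ± 0.06, adjusted p = 0.000371) and Smarcal1 (-0.30 ± 0.07, adjusted p = 0.00199). The medians over all genes tested lay between 0.0022 and 0.0043 in these 3 comparisons.

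**Figure D5:**
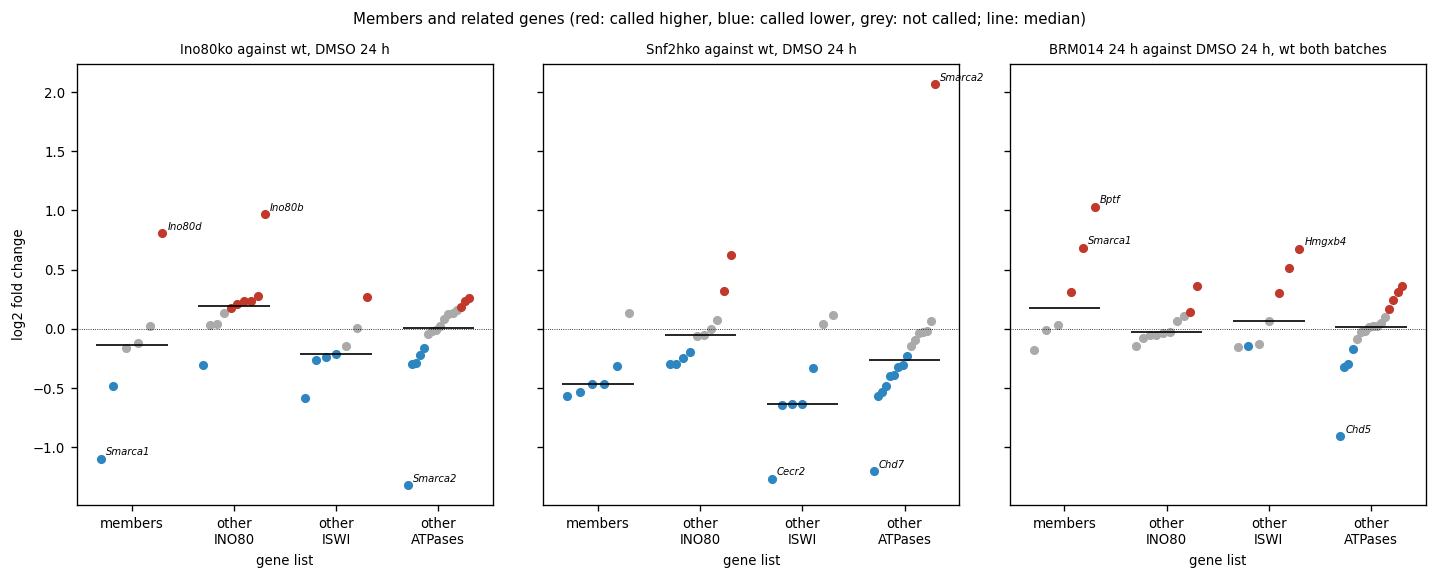
log2 fold change of every tested member and of the other INO80, ISWI and remodeller ATPase genes (horizontal axis) in 3 comparisons, red where called higher, blue where called lower and grey where not called, with a line at the list's median. In Snf2hko the medians of the members (-0.46) and of the other ISWI genes (-0.63) lie below 0, and Smarca2 stands at 2.07.

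Likeness to other genes was described by the correlation of group mean log2 CPM over the 13 groups of the first batch, among 8268 genes, with the value over the 6 groups of the second batch beside it. Bptf was most like Trim2 (0.985 and 0.892), Sp1 (0.985 and 0.861) and St5 (0.978 and 0.803). Among the genes most like Smarca1 were Limd2 (0.9751 and 0.752) and Micall1 (0.968 and 0.0721). Ino80 was most like Zscan25 (0.956 and -0.419), Tle4 (0.922 and 0.903) and Rapgef1 (0.911 and 0.259). Ino80c was most like Arf2 (0.963 and 0.694), Slc6a8 (0.934 and 0.636) and Iws1 (0.934 and 0.705). Ino80d was most like Emc10 (0.949 and 0.680), Acbd6 (0.934 and 0.774) and Trim8 (0.902 and 0.848), and Rsf1 like Usf3 (0.954 and 0.133), Zfp106 (0.953 and 0.899) and Med13 (0.941 and 0.614).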

How the data were processed

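Stranded total RNA libraries (TruSeq, per the labels' protocols) of 38 samples were used. The authors deposited raw counts per gene with no normalization, with symbols and exonic widths in the same table. Reads were processed with bcl2fastq 2.17 and STAR on GRCm38 (mm10), per the submitters' processing notes. The counting program is not given in the sources used here. All 38 count columns were matched to samples by name. The protocols call the replicates biological without naming their cultures, and the spread behind each p-value is that between these libraries, which may be technical.

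Counts were fitted with edgeR 4.0.16 in R 4.3.3 (robust quasi-likelihood, TMM factors from 0.9483 to 1.041, and filterByExpr with a minimum count of 10 and total of 15), by group, in 3 fits: the 26 libraries of the first batch (12517 genes, biological coefficient of variation 6.15%, 13 residual degrees of freedom), the 12 of the second (13130 genes, 6.634%, 6) and the 8 wild-type libraries at 24 h with batch as a term (11268 genes, 9.14%, 5). The script was tested on simulated data. Groups of a fit share 1 estimate of the spread because most hold 2 libraries. For BRM014 at 3 h and 6 h the control was the average of both DMSO times, since no vehicle of those times is labelled. Each of the 27 comparisons was adjusted on its own over all its genes. Alternatives were DESeq2 1.42.0, RLE factors, no filter, smaller fits, a replicate block, other vehicles and leaving out each library; the test of the 24 h response between batches was added after the data were seen.

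The members and the gene and marker lists were chosen with earlier results of these data known. All members are named, with up to 4 called genes of smallest adjusted p per list, and the 3 genes most like each member by Pearson correlation over group means (offset 0.5 CPM, mean log2 CPM of at least 2). For Smarca1, 1 of these genes is not reported here. Positions are from GENCODE M21 and upstream sequences from RefSeq (GRCm38.p6).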

Additional observations from a re-analysis of the deposited data

Results flagged for a closer look

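The response to 24 h of BRM014 differed between the line labelled Snf2hko and wild type in 3 of 6 members by the test of the difference itself (edgeR, 2 libraries in each of 4 groups). For Smarca1 it was lower in Snf2hko by a log2 difference of -0.7086 (adjusted p = 2.71e-05; -0.7705 to -0.6617 over the alternatives). For Ino80d it was higher by 0.6034 (adjusted p = 0.000953; 0.4475 to 0.7128 over the alternatives). For Rsf1 it was higher by 0.5281 (adjusted p = 0.00343; 0.3526 to 0.6539 over the alternatives). All 3 differences stayed called under every alternative run, including each of the 8 libraries left out in turn. The lowest value for Ino80d and for Rsf1 came without treated Snf2hko library 1. Primitive endoderm markers summed to 661.1 to 681.5 CPM with DMSO and 1016 to 1168 CPM with BRM014 in Snf2hko, against 139.4 to 146.1 and 198.2 to 214.7 CPM in wild type, and their part in these differences was not tested.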

How the results depend on the processing

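RLE size factors changed no count of members called by more than 1.5 times, but they ended 2 calls. These were Ino80c after BRM014 in Ino80ko (-0.20, adjusted p = 0.0512) and Bptf at 6 h of washout against DMSO (0.17, adjusted p = 0.0573). Each line against wild type under DMSO had as many members called (3 in Ino80ko, 5 in Snf2hko) under every alternative run. Ino80c in Ino80ko, not called, ranged from -0.04512 to 0.09288 with 1 library left out. The counts of members called that changed by more than 1.5 times, or from or to 0, follow. Smaller changes, such as those after BRM014 in Ino80ko, are not listed. BRM014 at 24 h over both batches had 3, and 5 in the first batch alone. The first batch had 5, 3 with only the libraries compared, and 3 to 4 with 1 library left out. BRM014 against the analog at 24 h had 3, and 5 with only the libraries compared. At 3 h there were 3, 1 against DMSO 1 h alone, and 1 to 4 with 1 library left out, and at 6 h 4, 2 against DMSO 1 h alone, and 2 to 3. DMSO 24 h against 1 h had 2, 1 with only the libraries compared, and 2 to 4. The analog at 24 h had 0, 1 without the filter, and 0 to 1 (1 without DMSO 24 h library 2). Washout of 24 h against DMSO had 1, 3 with DESeq2, 4 without the filter, 0 with only the libraries compared, and 0 to 3. Washout of 30 min had 0, 2 without the filter, and 0 to 4, and washout of 6 h against DMSO had 5, and 3 to 4. The smaller fits hold fewer libraries, and the cause of these changes was not tested.

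Counts of all genes called moved by more than 1.5 times in several comparisons. With only the libraries compared, BRM014 at 1 h called 49 genes (75 in the full fit, 154 without the filter), BRM014 at 30 min 43 (0; 2 without the filter), the analog at 1 h 35 (23; 80 without the filter), the analog at 24 h 996 (2306), and DMSO 24 h against 1 h 895 (2320). Washout of 30 min called 112 (738; 1110 without the filter), washout of 1 h 198 (498), and washout of 24 h against DMSO 655 (2181). BRM014 against the analog at 1 h called 52 without the filter (20). With 1 library left out, washout of 30 min called 162 to 1336 (738), washout of 1 h 229 to 403 (498), washout of 24 h against DMSO 1132 to 2611 (2181), the analog 2 to 62 at 1 h (23) and 1296 to 2411 at 24 h (2306), BRM014 17 to 45 at 1 h (75) and 2513 to 3923 at 3 h (3902), BRM014 against the analog at 1 h 2 to 26 (20), DMSO 24 h against 1 h 1147 to 2736 (2320), and the Ino80ko difference of response 678 to 1150 (1186). The shares of genes called that stand beside the members' counts move with these.

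Same-numbered libraries did not in general deviate together. Correlations of their deviations ran from -0.212 to 0.257 over 78 pairs of groups in the first batch (median -0.00503), with 10 over 0.1 and 5 under -0.1. Over 6 pairs among the lines they ran from -0.0877 to 0.208 (median 0.00186), with 2 over 0.1. The value in wild type of the second batch was 0.0297. The numbers were therefore not taken as pairs. With the replicate number as a replicate block, 23 of 23 counts of members called stayed within 1.5 times, and 1 member's call was lost (Bptf, washout of 6 h against DMSO, 0.1836, adjusted p = 0.0539). No paired analysis was possible because lines and wild type share no numbers, for the 4 comparisons of a line with wild type. With 2 libraries in a group, calls of small changes rest on single libraries, and depth limited none of the 6 members, the lowest of which stood at 33.7 CPM or more.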

Other observations

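The first-batch DMSO libraries at 24 h were apart in several members, with Bptf at 373.4 and 456.7 CPM, Ino80d at 138.7 and 185.8 and Rsf1 at 146.3 and 198.5, whereas Ino80 stood at 149.7 and 163.7. Over the 4 wild-type DMSO libraries at 24 h and the 4 with BRM014, no library of any member passed Dixon's 95% limit. Each set of 4 spans both batches without adjustment for batch. A batch difference widens the range, so this check says little about single libraries. Summed early mesoderm markers (5 genes, none at 0) were 6.325 to 7.153 CPM in wild type with DMSO, 6.334 to 6.633 in Ino80ko with DMSO and 17.71 to 18.13 in Snf2hko with DMSO. With BRM014 they were 8.306 to 8.816 in wild type, 16.66 to 18.28 in Ino80ko and 30.93 to 36.42 in Snf2hko, and over the wild-type libraries of the first batch they ran from 5.3 to 56.78. Neural markers (5 genes, Sox1 and Tubb3 at 0) stood at 75.26 to 75.28 CPM in wild type, 78.98 to 82.17 in Ino80ko and 84.79 to 88.4 in Snf2hko, all with DMSO. With BRM014 they were lower, at 44.48 to 45.2 CPM in wild type, 64.34 to 67.14 in Ino80ko and 55.08 to 59.67 in Snf2hko. In the first batch the neural sum ran from 39.36 to 146.3 CPM. Trophoblast markers (5 genes, Gata3 at 0) summed to at most 6.374 CPM in any library of the second batch.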
